A study of Sus scrofa with 6 samples.

Results

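CRP, LBP, FGB and FGG are 4 genes of plasma proteins of the acute phase, the liver's response to infection and injury. They were found by symbol among the 25322 Ensembl pig gene IDs of an RNA-seq study, of which 11804 carry a symbol, and each symbol belonged to 1 ID. The study measured mRNA in fat, liver and muscle of Berkshire pigs and of Korean native pigs (Sus scrofa). Each of the 6 combinations of 2 breeds and 3 tissues has 1 library, so no value within a breed and tissue has a replicate. The 6 groups are Berkshire fat, Berkshire liver, Berkshire muscle, Korean native fat, Korean native liver and Korean native muscle, and no treatment is named for any of them. The labels give neither age, sex nor health of the pigs, and leave it unsaid whether 1 animal or several gave a breed's libraries. The title of the series names 3 pigs or tissues of each breed, and its wording fits either reading.

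In mammals, hepatocytes secrete the acute phase proteins into plasma. Interleukin-6, acting through the IL-6 receptor and the transcription factor STAT3, and interleukin-1, acting through NF-kB, raise the transcription of many of them. CRP (C-reactive protein) is a pentraxin that binds phosphocholine on bacteria and damaged cells and activates complement, and it serves as a marker of inflammation in pigs as in people. LBP (lipopolysaccharide binding protein) carries bacterial endotoxin to CD14 and so to the receptor TLR4. FGB and FGG encode the beta and gamma chains of fibrinogen, which pair with the alpha chain, the product of FGA, and form the fibrin of a clot. Fibrinogen is abundant in plasma also without inflammation.

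The IDs are ENSSSCG00000006403 for CRP, ENSSSCG00000028758 for LBP, ENSSSCG00000008997 for FGB and ENSSSCG00000024314 for FGG. The reads were aligned to the Sscrofa10.2 build. The gene order here comes from RefSeq on the later build Sscrofa11.1, so no coordinates are given. RefSeq places FGG, FGA and FGB side by side, and no ID carries the symbol FGA, so the third fibrinogen chain was not analysed here. RefSeq also lists 2 neighbouring entries named CRP, of which the files give 1 ID. Reads that matched both copies could have been set aside as not unique, so the level of CRP is uncertain to that extent. Next to LBP lies BPI, a related endotoxin-binding gene of neutrophils, which had 0 counts in both livers.

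A library held between 5897407 and 7912093 counts on genes. Levels are TMM-scaled CPM, the counts of a gene relative to the scaled library size. A count of 0 allows up to 0.294 to 0.692 CPM, the value of 3 counts in the library concerned. Intervals are exact 95% intervals and, like this limit, cover counting error only. The tissue labels matched their markers. The hepatocyte gene ALB stood at 176485 and 212897 CPM in the livers and at 20.6 to 52.6 elsewhere, the adipocyte gene PLIN1 was highest in fat with 1096 and 621 CPM, and the muscle actin ACTA1 was highest in muscle with 49067 and 71091 CPM. Because tissue pieces were sequenced, fewer cells of a type and less RNA per cell cannot be told apart.

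All 4 genes were liver genes in these pigs, and CRP alone among them stayed under 10 CPM in 1 of the 2 livers. CRP had 7, 13407 and 1 counts in Berkshire fat, liver and muscle and 4, 45 and 3 counts in Korean native fat, liver and muscle. These counts corresponded to 0.686, 2682 and 0.183 CPM in Berkshire and to 0.394, 7.46 and 0.692 CPM in Korean native. Berkshire liver stood far above the other 5 libraries, and CRP took up 0.211% of all its gene counts. Korean native liver, with an interval of 5.44 to 9.98 CPM, still lay above fat and muscle of both breeds.

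LBP, the endotoxin carrier, had 1, 3521 and 0 counts in Berkshire fat, liver and muscle and 0, 1409 and 0 counts in Korean native fat, liver and muscle. Its liver level was 704 CPM in Berkshire and 233 CPM in Korean native. Outside the liver LBP was at or under the limit of detection in every library.

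FGB had 3, 15130 and 2 counts in Berkshire fat, liver and muscle, and 3, 17717 and 5 counts in Korean native. Its level in liver was 3027 CPM in Berkshire and 2936 CPM in Korean native, against 0.294 to 1.15 CPM in fat and muscle. The beta chain was thus nearly level between the livers. FGG had 2, 28239 and 4 counts in Berkshire and 5, 19915 and 4 counts in Korean native, in the same order of tissues. In liver the gamma chain reached 5650 CPM in Berkshire and 3300 CPM in Korean native, against 0.196 to 0.923 CPM in fat and muscle.

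**Figure D1:**
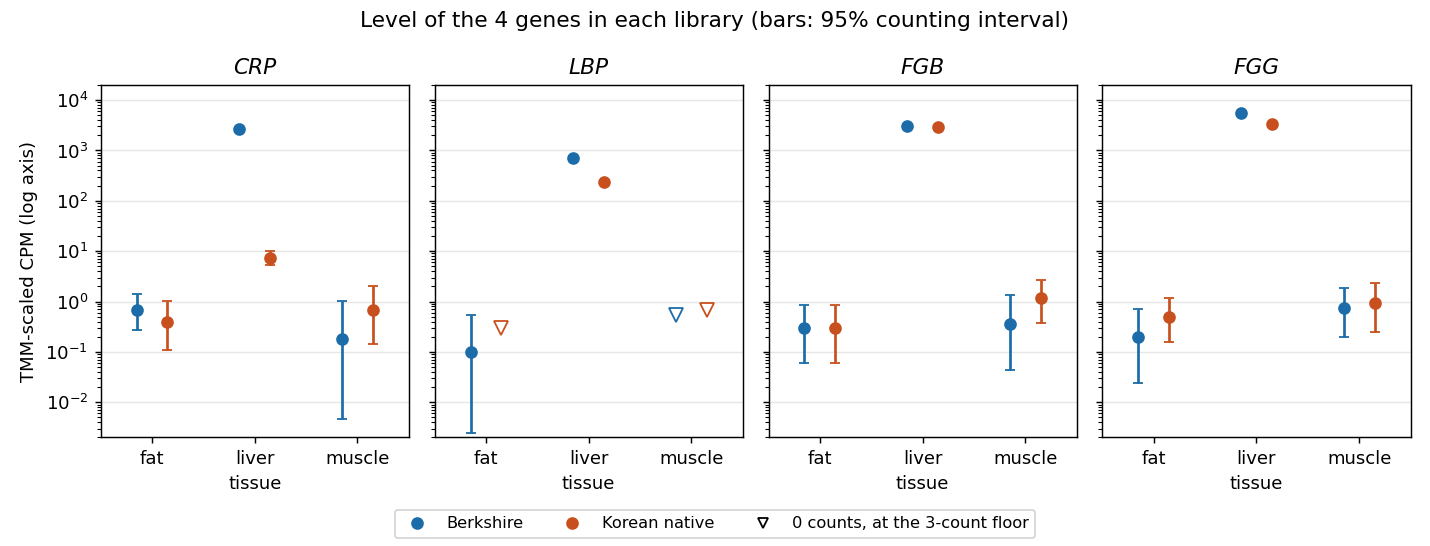
Level of CRP, LBP, FGB and FGG in each of the 6 libraries, in TMM-scaled CPM on a log axis; each point is 1 library and each bar its 95% counting interval, and open triangles mark libraries with 0 counts at the limit of 3 counts. Liver exceeds fat and muscle in each panel, and the Korean native liver of CRP, at 7.46 CPM, lies near the other tissues and not near Berkshire liver at 2682 CPM.

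The first comparison asked how far liver differed from fat and from muscle over both breeds. Of the 4 genes, 4 were called higher in liver than in fat and 4 higher in liver than in muscle, where 15.2% and 18.6% of all 13810 tested genes were higher in liver. The 4 genes entered the test only through their liver libraries, so this count is a description. Over both breeds CRP averaged 1345 ± 1891 CPM in liver (SD, n = 2), 0.540 ± 0.206 in fat and 0.437 ± 0.360 in muscle. The SD in liver exceeded the mean.

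The log2 difference between liver and fat was 9.82 ± 2.38 (SE) for CRP, with an edgeR adjusted p of 0.021. Against muscle it was 10.52 ± 2.63, with an adjusted p of 0.020. The SE of CRP was more than 3 times that of each other member in both comparisons. Without Berkshire liver the difference of CRP came to 3.71 against fat and 4.08 against muscle, and without Korean native liver to 12.25 and 12.62. Its call against fat was lost without Berkshire fat (log2 4.86, edgeR adjusted p = 0.13), and its call against muscle without Berkshire muscle (log2 4.08, adjusted p = 0.19). Over all alternatives the adjusted p of CRP ranged from 4.3e-07 to 0.13 against fat and from 3.8e-07 to 0.19 against muscle.

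The other 3 genes were steadier. FGB averaged 2981 ± 64.5 CPM in liver, 0.295 ± 0.00142 in fat and 0.760 ± 0.557 in muscle. Its liver level exceeded fat by 13.23 ± 0.70 and muscle by 11.98 ± 0.67 on the log2 scale, with edgeR adjusted p of 8.8e-05 and 7.5e-05. FGG averaged 4475 ± 1661 CPM in liver, 0.344 ± 0.210 in fat and 0.827 ± 0.135 in muscle. Its log2 differences were 13.56 ± 0.77 and 12.37 ± 0.75, with adjusted p of 9.2e-05 and 8.4e-05. LBP averaged 469 ± 333 CPM in liver, and its fitted differences of 12.78 ± 0.66 and 14.74 ± 0.80 (adjusted p of 1.1e-04 and 9.7e-05) depend on the prior count, since 3 of its 4 libraries outside the liver held 0 counts. Each of these 3 genes was called under all 12 alternatives in both comparisons. All 4 members met the rule for liver enrichment, a call against both tissues with a log2 of at least 2, which 8.11% of the tested genes met.

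Within a breed the distance between liver and the other tissues was as wide for FGB and FGG as the counts could resolve. FGB was 10303-fold higher in liver than in fat of Berkshire (3525 to 49965) and 9925-fold higher in Korean native (3396 to 48131). FGG was 28844-fold higher in liver than in fat of Berkshire and 6694-fold higher in Korean native, with intervals that overlap. LBP in liver was at least 1043-fold higher than in Berkshire muscle, 641-fold higher than in Korean native fat and 274-fold higher than in Korean native muscle. Each value is the lower end of the exact interval, since these libraries held 0 counts.

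For CRP the distance differed between the breeds. Berkshire liver exceeded Berkshire fat 3913-fold (1898 to 9734) and Berkshire muscle 14655-fold (2630 to 578870), whereas Korean native liver exceeded Korean native fat 18.9-fold (6.89 to 72.4) and Korean native muscle 10.8-fold (3.46 to 54.2). These intervals cover counting error only, and the share of all genes with as large a difference between the breeds was not counted. A liver-by-breed term, added after the data were seen, is given below with the breeds. Expressed the other way, fat and muscle of Korean native held 5.29% and 9.28% of the CRP level of its liver, resting on 4 and 3 counts. In Berkshire they held 0.0256% and 0.00682%. The 10 hepatocyte markers with an ID, measured in the same way, had medians of 0.0100% and 0.0129% in fat of Berkshire and Korean native and 0.0300% and 0.0249% in muscle, with a highest value of 0.0518%. FGB and FGG, at 0.00347% to 0.0393%, lay in the range of these markers in all 4 libraries. CRP lay above it in both Korean native libraries, and the part of carried-over liver RNA in the few counts outside the liver was not tested.

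**Figure D2:**
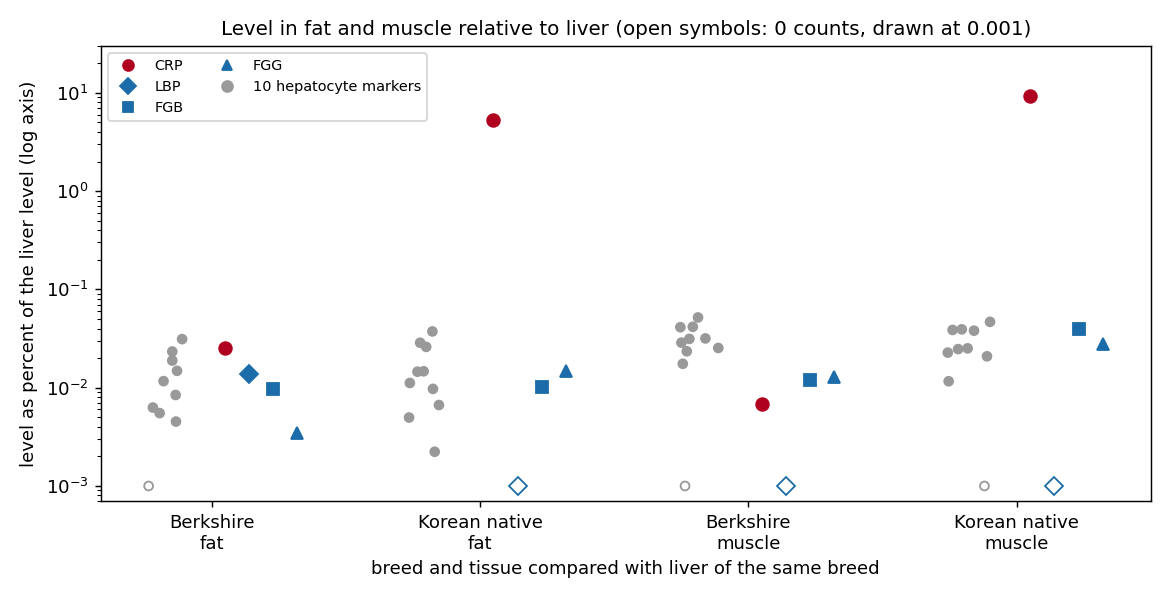
Level in fat and muscle as a percentage of the level in liver of the same breed, on a log axis, for the 4 genes and 10 hepatocyte markers; each point is 1 gene, and open symbols are genes with 0 counts drawn at 0.001. CRP stands at 5.29% and 9.28% in Korean native fat and muscle, above every marker, and within the range of the markers in Berkshire.

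Muscle and fat were compared next. None of the 4 genes was called by edgeR, where 16.4% of tested genes were called in either direction. The log2 difference, muscle minus fat, was -0.70 ± 3.06 for CRP, -1.95 ± 1.74 for LBP, 1.24 ± 0.75 for FGB and 1.19 ± 0.78 for FGG, with adjusted p from 0.28 to 0.89 and unadjusted p from 0.14 to 0.83. With 0 to 7 counts in each of these libraries, a difference between fat and muscle was not detectable at this depth.

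The next question was how the breeds differed in liver, where each breed gives 1 library and no test was made within the tissue. CRP was 360-fold higher in Berkshire liver than in Korean native liver, with a counting interval of 269 to 493. Of the 8357 genes that reached 10 CPM in either liver, 5 lay further to the Berkshire side. It was the 1 member at least 4-fold apart, a distance that 1.41% of these genes reached in that direction and 2.78% in either. The 2 RefSeq entries named CRP bear on this ratio too. Reads without a unique alignment made up 20.8% of the entries of Berkshire liver and 17.1% of Korean native liver, and their part, like that of breed differences in CRP alleles or copies, was not tested. CRP passed this minimum through Berkshire liver alone, and 0 members were called when at least 10 CPM in both livers was asked.

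LBP followed, 3.02-fold higher in Berkshire liver (2.84 to 3.21), and 180 of the 8357 genes lay further to that side. With CRP it makes 2 members at least 2-fold higher in Berkshire, a distance that 5.53% of the genes reached. FGG was 1.71-fold higher in Berkshire liver (1.68 to 1.74), with 730 genes further out. FGB was 1.03-fold higher in Berkshire (1.01 to 1.05), in the middle of the distribution, with 3871 genes further to that side. All 4 ratios pointed to Berkshire, as did those of 4163 of all 8357 genes, whose median log2 ratio was 0.002. The 4 covered the range from almost level, for FGB, to the edge of the distribution. Scaling by total counts kept all 4 on that side.

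**Figure D3:**
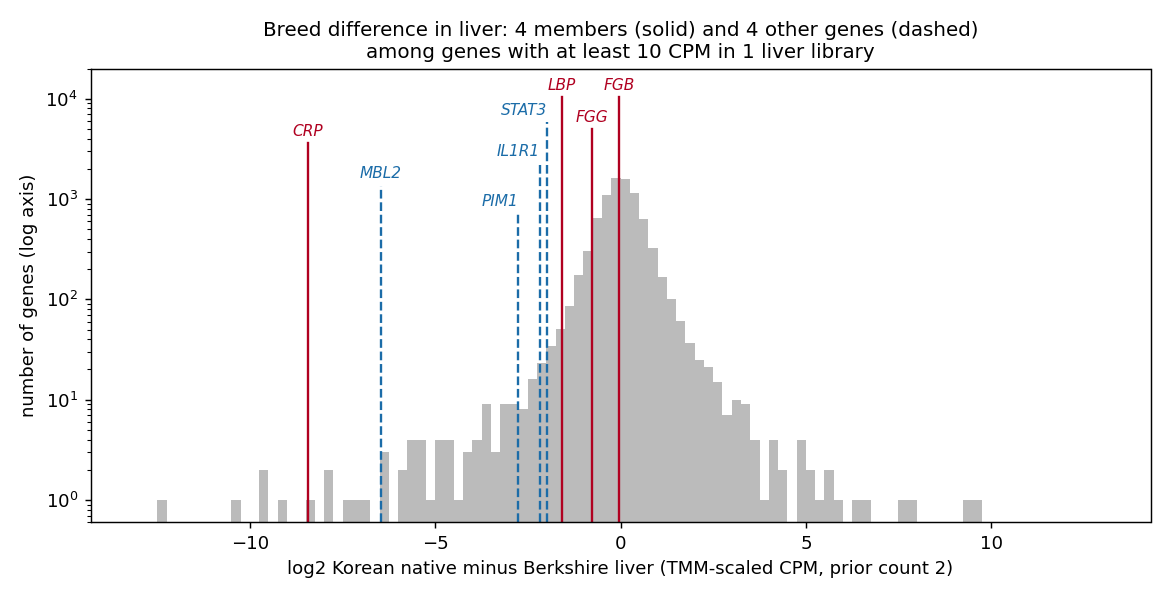
Histogram of the breed difference in liver (log2, Korean native minus Berkshire, TMM-scaled CPM with a prior count of 2) over 8357 genes, with the number of genes on a log axis; solid lines mark the 4 genes and dashed lines MBL2, PIM1, IL1R1 and STAT3. FGB lies at -0.04 near the centre, FGG at -0.78, LBP at -1.59 and CRP at -8.44.

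The chains of fibrinogen differed in their balance between the livers. Per count of FGG, Berkshire liver held 0.536 counts of FGB (0.525 to 0.546) and Korean native liver 0.890 (0.872 to 0.908). Gene length cancels in the comparison of these ratios between libraries. The ratio was 1.66-fold higher in Korean native liver (1.61 to 1.71). FGB made up 34.9% of the counts of both chains in Berkshire and 47.1% in Korean native. The change came mostly from FGG, since FGB was nearly level. In Korean native fat and muscle the ratio was 0.600 and 1.25 from 3 to 5 counts a gene, and both intervals include the ratios of both livers.

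In fat and muscle every member lay under 10 CPM in both breeds, so none could be called apart between breeds there. CRP in fat was 0.575 times as high in Korean native as in Berkshire (0.124 to 2.26), and in muscle 3.78 times (0.304 to 198). For FGB the ratio in muscle was 3.15 (0.516 to 33.1) and for FGG in fat 2.52 (0.412 to 26.4). Every interval with counts in both breeds included 1. Stated as Berkshire over Korean native, the intervals of CRP were 0.442 to 8.10 in fat and 0.00504 to 3.29 in muscle. That in liver was 269 to 493, and all cover counting error only.

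A liver-by-breed term, added to the model after the data were seen, tested whether the breed difference in liver departed from that in fat and muscle. The term was -8.53 ± 1.22 on the log2 scale for CRP, with an edgeR adjusted p of 0.0061 and a range from 8.3e-07 to 0.021 over the other scalings, filters and tools tried, DESeq2 apart (1.5e-10). CRP was the 1 member called, where 0.130% of the tested genes were. The term was -1.53 ± 1.04 for FGG, -0.86 ± 1.06 for FGB and 0.64 ± 0.81 for LBP, none called, and that of LBP turned negative with DESeq2 and limma. This model leaves 1 residual degree of freedom. Its spread is how far fat and muscle differ in their breed difference, which edgeR moderates with a spread pooled over all tested genes. The livers are assumed to share this spread. For CRP the fat and muscle libraries held 1 to 7 counts, and CRP entered the test only through its liver libraries. The term of CRP thus nearly repeats its liver ratio (log2 -8.44), and its p-value does not measure how livers of a breed vary.

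Over all 3 tissues together, none of the 4 genes was called between the breeds by edgeR, where 0.109% of the tested genes were called in either direction, 15 in number, and 1103 had an unadjusted p under 0.05. Of the 4, LBP alone had an unadjusted p under 0.05. DESeq2 and limma called 0 of the 4 as well. CRP had a log2 difference of -5.80 ± 2.53, with an unadjusted p of 0.056 and an adjusted p of 0.64. Without either liver library the coefficient of CRP was 0.06 or 0.05, so it rests on the pair of livers. The coefficient of LBP was -1.62 ± 0.48 (unadjusted p of 0.014, adjusted p of 0.49), and that of FGB was 0.26 ± 0.45 and that of FGG -0.19 ± 0.51, with adjusted p of 0.91 and 0.95. LBP held 0 or 1 counts in each library outside the liver, so its coefficient nearly repeats its liver ratio (log2 -1.59). FGB and FGG held 2 to 5 counts there. With so few counts these fits cannot measure how steady a breed difference is over the tissues.

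The wider set of positive acute phase genes, those known to rise in inflammation, has 29 genes listed, of which 15 have an ID, the 4 members included. SAA1 to SAA4, HP, ORM1, FGA and APCS are among those with no ID. Of the 15, 12 were higher in liver than in fat and 1 lower (15.2% and 13.5% of all tested genes), with a median log2 of 7.67, against 0.06 over all tested genes. The 1 lower gene was LCN2, an iron-sequestering protein. In liver, 13 of the 15 reached 10 CPM in a library and 11 of them lay to the Berkshire side, as did 4163 of all 8357 genes. CRP and LBP were the 2 of the 13 at least 2-fold higher in Berkshire, a distance that 5.53% of all genes reached.

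Without the 4 members, 7 of 9 acute phase genes lay to the Berkshire side in liver, as did 4163 of all 8357 genes. The 9 had a median log2 of -0.27 and a range from -0.96 to 0.21, and 0 were 2-fold apart. Of all genes, 5.53% and 5.76% were at least 2-fold higher in Berkshire and Korean native. C3, the central complement component, stood at 8838 CPM in Berkshire liver and 4548 in Korean native. CP, the copper carrier ceruloplasmin, stood at 8834 and 7364 CPM. ITIH4, the major acute phase protein of pigs, stood at 3417 and 2404 CPM, and HPX, the haem carrier hemopexin, at 3361 and 2786. The distance of CRP was thus not shared by these genes, of which C3 came closest to FGG in its ratio.

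Negative acute phase genes, whose products fall in inflammation, were set beside them. In liver 11 were measured, 7 lay to the Korean native side, as did 4194 of all 8357 genes, and the median log2 was 0.27. At least 2-fold higher in Korean native were 2, a distance that 5.76% of all measured genes reached. APOA2, an apolipoprotein of high-density lipoprotein, was 3.24-fold higher in Korean native liver (3.06 to 3.43), and SERPINA6, the cortisol carrier, 2.12-fold higher (1.96 to 2.29). ALB stood 1.21-fold higher in Korean native liver, whereas AHSG, at 4154 CPM in Berkshire and 3047 in Korean native, lay on the Berkshire side as FGG did.

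Genes of the signals that reach the acute phase genes were then read. In the list of IL-6 and STAT3 signalling, 11 genes reached 10 CPM in liver. Of these 4 were at least 2-fold higher in Berkshire, 0 were 2-fold higher in Korean native (5.53% and 5.76% of all genes), and the median log2 was -0.42. STAT3 stood at 730 CPM in Berkshire liver and 183 in Korean native, a ratio of 3.98 (3.72 to 4.26), and at 102 to 136 CPM in the 4 other libraries. PIM1, a kinase gene induced by STAT3, stood at 109 and 15.9 CPM, a ratio of 6.87 (5.52 to 8.62). OSMR, the oncostatin M receptor, and BCL3, a regulator of NF-kB, were the other 2. The receptor genes IL6R, with 134 and 118 CPM, and IL6ST, with 191 and 144 CPM, were closer to level. IL6 itself had 0 counts in both livers, and SOCS3, the feedback inhibitor, has no ID. Between tissues, IL6R alone of the 12 tested genes was called higher in liver than in fat, as were 15.2% of all genes. IL6R, OSMR, STAT3 and PIM1 were called higher than in muscle, as were 18.6% of all genes.

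In the list of IL-1, TNF and NF-kB signalling, 12 genes were measured in liver, with a median log2 of -0.26. Of these, 1 was at least 2-fold higher in Berkshire and 1 in Korean native (5.53% and 5.76% of all genes). IL1R1, the signalling receptor of interleukin-1, stood at 1869 CPM in Berkshire liver and 413 in Korean native, a ratio of 4.52 (4.33 to 4.73). CCL2, a monocyte chemokine, was 2.51-fold higher in Korean native liver, at 15.1 against 6.00 CPM. The other 10 were within 2-fold, the NF-kB subunit gene RELA among them with 114 and 105 CPM.

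LBP acts at the head of the endotoxin pathway. Of its list, 6 genes, LBP itself among them, reached 10 CPM in liver. All 6 lay to the Berkshire side, as did 4163 of all 8357 genes. LBP was the 1 gene at least 2-fold apart, a distance that 5.53% of all genes reached in that direction. CD14, the receptor that takes endotoxin from LBP, stood at 248 CPM in Berkshire liver and 180 in Korean native. TICAM1, an adaptor of TLR4, stood at 66.2 and 34.6 CPM, and MYD88, the other main adaptor, at 44.8 and 27.7. TLR4 itself stood at 7.20 and 4.97 CPM, under the minimum, and its interval of the ratio included 1.

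Of 6 soluble pattern receptors measured in liver, CRP included, 5 lay to the Berkshire side, as did 4163 of all 8357 genes. Of these, CRP, MBL2 and PGLYRP2 were at least 2-fold higher in Berkshire, a distance that 5.53% of all genes reached. MBL2, the mannose-binding lectin that starts the lectin pathway of complement, stood at 391 CPM in Berkshire liver and 4.14 in Korean native, a ratio of 94.5 (63.8 to 146). MBL2 was at 0 to 0.0986 CPM in fat and muscle. The collectin COLEC11, at 63.8 and 68.8 CPM, was nearly level. No ID carries the symbol APCS, the other short pentraxin.

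Coagulation genes gave a setting for FGB and FGG. Of 19 with an ID, 17 were called higher in liver than in fat, and F8 and F13A1 lower, where 15.2% and 13.5% of all tested genes were. In liver 18 were measured, with a median log2 of -0.08. Of these, 10 lay to the Berkshire side and 8 to the Korean native side (4163 and 4194 of all 8357 genes). Of the 18, 0 were 2-fold apart, where 5.53% and 5.76% of all genes were higher in Berkshire and Korean native. VTN (vitronectin), at 464 and 235 CPM, was furthest to the Berkshire side, and KNG1 (kininogen), at 1919 and 3239 CPM, furthest to the Korean native side. PLG (plasminogen), the precursor of the enzyme that dissolves fibrin, stood at 5598 and 7045 CPM. F2 (prothrombin), whose product cleaves fibrinogen, stood at 1166 and 1182 CPM and was nearly level, as was FGB.

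The transcription factors of hepatocytes and the secretory pathway were less far apart than CRP or LBP. Of 11 liver transcription factors measured, 0 were 2-fold apart, with a median log2 of -0.07. Of all genes, 5.53% were at least 2-fold higher in Berkshire liver and 5.76% in Korean native. Lists this short do not set a count of 0 apart from those shares. HNF4A stood at 949 CPM in Berkshire liver and 811 in Korean native, and CEBPA at 44.4 and 66.0, whereas CEBPB and CEBPD have no ID. Of 13 genes of the secretory pathway, 0 were 2-fold apart, with a median log2 of -0.53. To the Berkshire side lay 11, as did 4163 of all 8357 genes. LMAN1, a cargo receptor for clotting factors, stood at 283 and 143 CPM, and the chaperone HSPA5 at 887 and 615. Among 7 measured genes of fibrinogen receptors and relatives 0 were 2-fold apart.

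**Figure D4:**
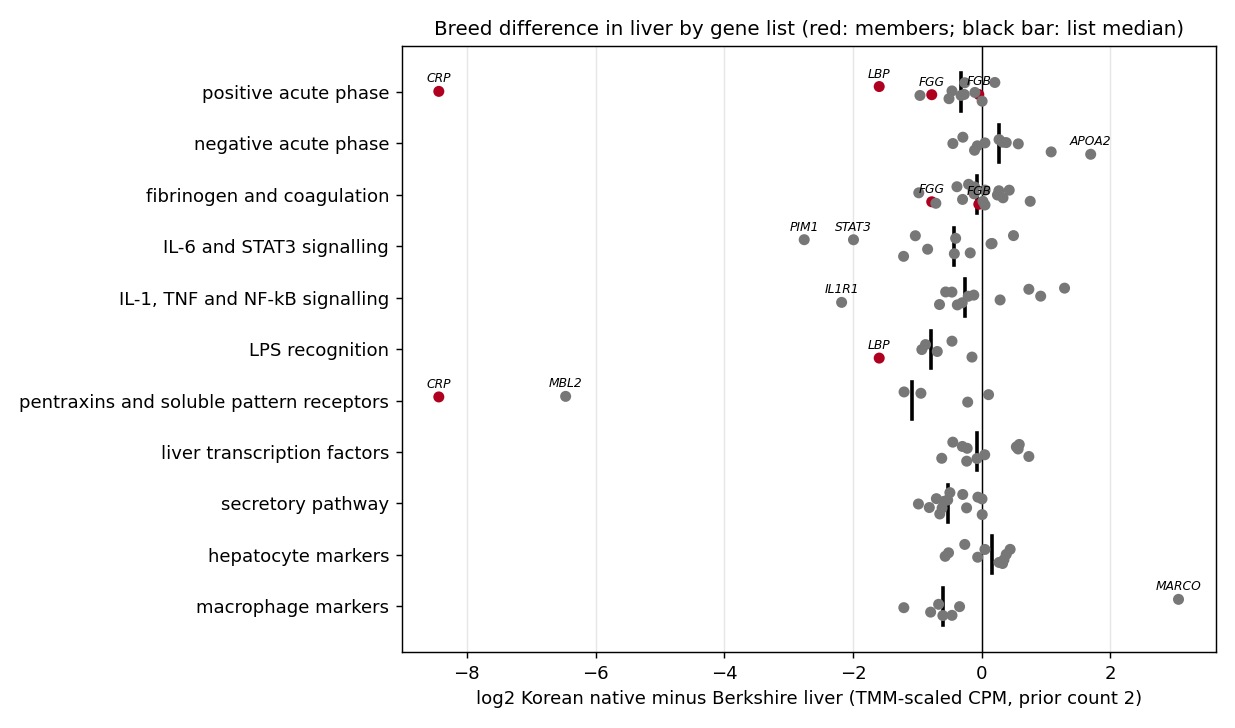
Breed difference in liver (log2, Korean native minus Berkshire, TMM-scaled CPM with a prior count of 2) for genes of 11 lists with at least 10 CPM in 1 liver library; each point is 1 gene, red marks the 4 members and the black bar is the list median. CRP at -8.44 and MBL2 lie far to the left, PIM1, STAT3, IL1R1 and LBP follow, and the coagulation genes and liver transcription factors lie around 0.

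Markers of other cells moved with the breed in liver too. Summed over the 10 hepatocyte markers with an ID, the level was 222141 CPM in Berkshire liver and 256496 in Korean native. Elsewhere it was 27.7 to 66.7 CPM. ALB made up most of both liver sums. Of the 10 markers, 6 lay to the Korean native side and 4 to the Berkshire side (4194 and 4163 of all 8357 genes). Of the 10, 0 were 2-fold apart, where 5.53% and 5.76% of all genes were higher in Berkshire and Korean native. The 8 macrophage markers summed to 671 CPM in Berkshire liver and 523 in Korean native. Of 7 measured, 6 lay to the Berkshire side, as did 4163 of all 8357 genes, while MARCO stood at 9.80 and 83.8 CPM. The 6 neutrophil and monocyte markers summed to 53.0 and 32.3 CPM. The 4 erythroid markers summed to 249 and 2135 CPM, HBB leading with 233 and 2031. Summed T and B cell markers (134 and 138 CPM) and endothelial markers (410 and 373 CPM) were closer to level. All 10 hepatocyte, 8 macrophage, 6 neutrophil and 4 erythroid markers had counts in both livers. The part of these cells, and of the animals' state, in the breed differences of CRP, LBP and FGG was not tested.

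The genes most like each member were sought by Pearson's r of log2(CPM + 1) over the 6 libraries among 9100 tested genes with a symbol. The libraries share tissues in pairs, so a gene restricted to liver has a high r by that alone, and the values describe these libraries. For CRP, 3 genes had r over 0.99. The r values of CRP are set mostly by Berkshire liver, where it stood at 2682 CPM, against 7.46 or less elsewhere. Its list thus holds genes high in that library, and STAT3 on it also reached 102 to 136 CPM in fat and muscle. The 5 highest were CYP2E1 (an ethanol-oxidising enzyme, r = 0.998), MBL2 (0.998), SLC13A5 (a citrate transporter, 0.991), STAT3 (0.989) and ALG3 (a glycosylation enzyme, 0.989). CYP2E1 stood at 5397 CPM in Berkshire liver and 7.13 in Korean native, and SLC13A5 at 110.2 and 3.31.

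The other members resembled far more genes. LBP had 133 genes with r over 0.99, with DNAJC22, MARVELD3, LHX2 and SALL1 among the 5 highest. SALL1, a transcription factor, stood at 141 CPM in Berkshire liver and 57.7 in Korean native. FGB had 184 such genes, with SLC2A2, the glucose transporter of liver, CPN1 and PLG among the 5 highest. FGG had 180, led by CPS1, the first enzyme of the urea cycle, AHSG, AKR1D1, F13B and CPN1. CPN1, a plasma carboxypeptidase, stood on the lists of both fibrinogen chains. With 0.1 in place of 1 added to the CPM, 4 of the 5 genes were kept for CRP, 4 for FGG, 3 for FGB and 1 for LBP. By Spearman's rho, 0 of the 5 genes was kept for any member.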

How the data were processed

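RNA from frozen tissue was extracted with Trizol and made into Illumina TruSeq libraries, per the labels' protocols. The values the authors deposited are raw read counts for each Ensembl gene ID. Per the submitters' processing notes, TopHat aligned the reads to Sscrofa10.2 and HTSeq 0.5.3p3 counted them. How strand and overlaps were handled, and which annotation was used, is not given in the sources used here. Reads set aside as ambiguous between genes made up 0.354% to 0.809% of a library's entries. Whether reads antisense to a gene were counted on it is not known. The 5 closing entries that name no gene were left out of library sizes. Reads outside genes made up 45.9% to 52.5% of a library's entries, and reads without a unique alignment 14.1% to 20.8%, highest in Berkshire liver. Symbols come from a supplied table that matched 11804 IDs (46.6%).

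Tissue and breed were tested over all 6 libraries in 1 additive model with edgeR 4.0.16 in R 4.3.3, using TMM, filterByExpr (13810 genes kept) and the two-sided quasi-likelihood test, with Benjamini-Hochberg adjustment over all tested genes and a threshold of 0.05. This fit was first tested on simulated data with smaller fold changes than those of the members between tissues. That test does not cover genes with as few counts as the members had in fat and muscle. With 1 library per breed and tissue, its 2 residual degrees of freedom hold how far the breed difference varies between tissues, together with noise between libraries. edgeR moderates this spread in each gene with one pooled over all tested genes. The p-values measure only this moderated spread, which may be technical in part. The SE is derived as |log2| divided by the root of the F statistic, and edgeR does not give it. A liver-by-breed term was added to this model after the data were seen. Within a tissue, ratios of CPM carry exact Clopper-Pearson conditional intervals. A gene was called when it reached 10 CPM in either library and was at least 4-fold apart with a prior count of 2, and 2-fold was described too. "To the Berkshire side" means a log2 value below 0.

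The members and gene lists were chosen with earlier results of these data known. Named genes are the 4 members, the 5 genes of highest r with each, up to 6 genes a list (the 4 of highest mean CPM and the 2 of largest ratio in liver) and a set of label checks and pathway genes, though not each is printed, and some are not reported here. OSMR, BCL3, PGLYRP2, HPX, F2, LCN2, F8, F13A1, PTX3, ITIH3 and BPI were named after their values were seen. Alternatives were size factors of DESeq2 1.42.0, total counts, no filter, DESeq2, limma 3.58.1 (voom), 1 factor in the model, other minima, folds and prior counts, and leaving out each library. No sequences were used here, so promoter motifs were not searched.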

Additional observations from a re-analysis of the deposited data

Results flagged for a closer look

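CRP had a liver-by-breed term of -8.53 ± 1.22 (log2), which nearly repeats its breed ratio in liver (log2 -8.44). CRP stood at 2682 CPM in Berkshire liver and 7.46 in Korean native liver, and at 0.183 to 0.692 CPM in the 4 other libraries, where a library held 1 to 7 counts. The term was added after the data were seen, and CRP entered the test only through its liver libraries. The term rests on 1 library for each breed and tissue and 1 residual degree of freedom. Its p-value, given above, thus does not measure how livers of a breed vary.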

How the results depend on the processing

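No paired analysis was possible because each breed and tissue has 1 library, which leaves no replicate numbers to pair beyond the breed and tissue terms of the model. Leaving out 1 library leaves a tissue of 1 breed, which is assumed to vary like the others. Over the 6 libraries left out in turn, the members called ranged from 3 to 4 in liver against fat, in liver against muscle and in liver enrichment, CRP being the gene lost. The genes called ranged from 2452 to 4823 in liver against fat (3959 with all libraries), from 3346 to 4998 in liver against muscle (4964), from 866 to 2652 in muscle against fat (2262), from 16 to 83 between breeds (15) and from 1029 to 1138 in liver enrichment (1120). The count fell to 2452 without Korean native fat in liver against fat. In muscle against fat it fell to 1475 without Berkshire fat, 866 without Korean native fat and 1010 without Korean native muscle. Between breeds, leaving out a liver gave 72 (Berkshire) and 83 (Korean native), leaving out a fat library 46 and 42 in the same order, and leaving out Korean native muscle 31. Total counts moved the calls to 6955 in liver against fat and 6020 in muscle against fat, as they shifted the median log2 of all genes to -0.94 and -0.98. Between breeds, no filter gave 87 genes, DESeq2 94 and breed alone in the model 0. The cause of these moves was not tested. Genes 4-fold apart numbered 118 in fat, 232 in liver and 232 in muscle. These became 306, 474 and 601 at 1 CPM, 34, 95 and 91 at 10 CPM in both libraries, and 605, 943 and 1678 at 2-fold. Members apart in liver were 1, then 0 at 10 CPM in both and 2 at 2-fold. Libraries with a fibrinogen ratio rose from 2 to 4 at 3 counts a gene. The liver-by-breed term called 18 genes, 56 with no filter, 29 with DESeq2 and 9 with limma, and CRP was called in each. Leaving out a library leaves it no residual degrees of freedom. No member's called direction reversed. Depth limits every value outside the liver, where a member had at most 7 counts.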

Other observations

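Some acute phase genes were measurable outside the liver, where the 4 members had at most 7 counts. ITIH3, which encodes a heavy chain of a plasma protease inhibitor, stood at 462 CPM in Berkshire fat and 123 in Korean native fat, and at 21.0 and 5.77 CPM in muscle. LCN2 stood at 52.8 and 8.58 CPM in fat. CD14 was lower in Berkshire fat, at 16.4 CPM against 39.0 in Korean native. PTX3, the long pentraxin made outside the liver, stood at 5.78 and 5.72 CPM in fat and at 16.7 and 7.38 in muscle. In fat 7 genes of the list reached 10 CPM, with a median log2 of -0.32 against 0.02 over all genes, and in muscle 5, with a median of -1.14 against 0.08. Markers of other cells moved with the breed as well. The 4 adipocyte markers with an ID summed to 3154 CPM in Berkshire fat and 1671 in Korean native fat. In muscle they summed to 258 and 57.7. In both tissues 4 of 4 lay below 0, as did 3864 of 7994 genes in fat and 3821 of 8252 in muscle. The median log2 of these markers was -0.93 in fat and -2.15 in muscle. Macrophage markers summed to 132 and 272 CPM in fat and to 92.6 and 37.4 in muscle, and stellate cell and fibroblast markers to 13232 and 18857 in fat and to 27027 and 11045 in muscle. The part of these cells was not tested. Each value is of 1 library.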
